A study of Homo sapiens with 45 samples.

Results

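The receptors of epidermal growth factor and the ligands that activate them were followed after depletion of HNRNPK in the human colon cancer line HCT116, which is an established line. Their 9 genes were taken by symbol from the gene counts, out of 28278 gene names, and all 9 passed the filter on low counts. They comprise 3 receptors (EGFR, ERBB2 and ERBB3), 5 ligands (AREG, EREG, HBEGF, TGFA and BTC) and ERRFI1, an inhibitor of the receptors. HNRNPK encodes a ribonucleoprotein known to bind C-rich stretches of RNA and of single DNA strands. Nontargeting or HNRNPK siRNA was given at 25 nM, and collection followed at 72 hours. The RNA data hold 10 libraries: 4 from the nontargeting siRNA siNTC5, 4 from HNRNPK siRNA (siHNRNPK), and 2 from a nontargeting siRNA named Scramble. Replicates 1 and 2 of siNTC5 and of siHNRNPK were made with a TruSeq kit and replicates 3 and 4 with a Ligation kit, whereas both Scramble libraries were made with TruSeq. Scramble is the labels' replicates 5 and 6 of the control. The chromatin data enter as 7 lists of domains for 3 histone marks and for lamin B1, part of the meshwork under the nuclear envelope, 1 list for each antibody and siRNA with no replicate. All values come from this 1 cell line.

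The ERBB receptors are tyrosine kinases of the cell surface that pair when a ligand binds and then signal through the RAS-ERK and PI3K routes. The ligands are made as membrane-bound precursors and are released by proteases of the ADAM family. The route is known as a driver of growth in the intestinal epithelium and in colon cancer, and its own output includes ligands and inhibitors that feed back on the receptors.

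After HNRNPK depletion, EGFR was the member with the largest change: its RNA fell to 25.6% of the siNTC5 level. ERBB2, ERBB3, TGFA and ERRFI1 fell to between 65.6% and 77.4% of that level. EREG rose to 163% and HBEGF to 149%, AREG rose by 0.36 on the log2 scale, and BTC did not pass the test. In Scramble cells AREG, HBEGF, ERRFI1 and TGFA were well above siNTC5. Thus AREG and HBEGF were higher in depleted cells than in siNTC5 but lower than in Scramble. EREG was also above siNTC5 in Scramble, by 0.58 on the log2 scale. Depleted cells did not pass as different from Scramble for EREG (0.08, adjusted p = 0.116, quasi-likelihood test of edgeR). In that comparison 0 of the 9 genes passed as higher, beside 38.8% of all tested genes, and 7 as lower, beside 42.8%. Under upper-quartile scaling EREG did pass as higher there, at 0.26.

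Depth was between 12107280 and 23633851 counts in the siNTC5 and siHNRNPK libraries and was 59209169 and 55007171 counts in the Scramble libraries. HNRNPK itself was at 884 ± 78.0 CPM (counts scaled to the TMM-normalised library size, mean ± SD, n = 4) in siNTC5 and at 199 ± 45.3 CPM (n = 4) in siHNRNPK. This is 22.4% of control, and the quasi-likelihood test of edgeR gave -2.17 ± 0.06 (SE) on the log2 scale (adjusted p = 7.29e-15). A two-sided exact permutation test gave p = 0.0286, its lower limit for groups of 4. The Scramble libraries were counted in separate tables, and some genes differ between the tables from nothing to a clear signal: HRAS has 0 counts in all 8 other libraries and 1503 and 1438 counts in Scramble. The siRNA, RNA purification, depth and count table of Scramble differ from siNTC5 together and cannot be told apart.

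The 9 epithelial markers checked against the colon label summed to 2825 to 3270 CPM in siNTC5, to 4563 to 5581 CPM in siHNRNPK and to 4338 to 4445 CPM in Scramble. Of the 7 that could be tested, 5 rose with HNRNPK siRNA, among them EPCAM, KRT8 and KRT18, while KRT19 fell by 1.27 on the log2 scale. VIL1 and CEACAM5, markers of the enterocyte brush border and of colon tumours, had at most 6 and 4 counts in any of the 8 libraries. Markers of leukocytes, endothelium and hepatocytes summed to at most 3.29 CPM in any library, with CD3E at 0 in all 10. The fibroblast list ranged from 44.6 to 73.8 CPM in siNTC5 and from 75.5 to 122 CPM in siHNRNPK, nearly all of it COL1A1. The part of these shifts in the results that follow was not tested.

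Promoter sequences are shown for EGFR, the member that fell the most, and for 3 ligands: TGFA, which fell, and AREG and EREG, which rose against siNTC5. Each holds the 250 bases before the annotated gene start (RefSeq, GRCh38.p14), 5′ to 3′ on the gene's strand. Capitals mark matches on either strand to 5 motifs: AP-1 (TGANTCA), the cyclic AMP response element or CRE (TGACGTCA), the TATA box (TATAAA), the GC box (GGGCGG) and the CT element (CCCTCCC). EGFR is chr7:55018767-55019016 on the plus strand, TGFA chr2:70553827-70554076 on the minus strand, AREG chr4:74444886-74445135 and EREG chr4:74364895-74365144, both on the plus strand.
EGFR: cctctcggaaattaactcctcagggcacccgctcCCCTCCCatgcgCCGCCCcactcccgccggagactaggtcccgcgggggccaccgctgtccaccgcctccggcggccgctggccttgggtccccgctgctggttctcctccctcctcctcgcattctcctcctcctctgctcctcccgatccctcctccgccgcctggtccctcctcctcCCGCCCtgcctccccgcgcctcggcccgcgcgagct
TGFA: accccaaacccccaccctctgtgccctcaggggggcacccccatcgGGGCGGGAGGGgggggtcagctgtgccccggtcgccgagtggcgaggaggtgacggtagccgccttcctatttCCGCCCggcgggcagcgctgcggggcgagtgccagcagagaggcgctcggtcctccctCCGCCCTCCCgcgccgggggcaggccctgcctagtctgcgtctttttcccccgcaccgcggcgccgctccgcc
AREG: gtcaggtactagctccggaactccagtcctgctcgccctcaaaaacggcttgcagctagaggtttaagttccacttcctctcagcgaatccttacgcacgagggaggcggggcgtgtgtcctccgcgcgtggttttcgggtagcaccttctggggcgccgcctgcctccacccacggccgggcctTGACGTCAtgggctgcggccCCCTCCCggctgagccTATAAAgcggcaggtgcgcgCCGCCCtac
EREG: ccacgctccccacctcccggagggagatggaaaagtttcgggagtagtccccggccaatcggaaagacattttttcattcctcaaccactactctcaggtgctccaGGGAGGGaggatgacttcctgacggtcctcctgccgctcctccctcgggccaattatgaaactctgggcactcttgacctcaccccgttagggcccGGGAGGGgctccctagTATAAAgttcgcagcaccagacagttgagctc
Positions count back from the base before the start, which is -1, to the first base of a match. EGFR holds GC boxes at -204 and -36 and a CT element at -216, with no TATA box in this window. A second EGFR entry, at chr7:55109589-55109838, holds TATA boxes at -146 and -36 and AP-1 matches at -232 and -136, with no GC box and a GC content of 38.8%. TGFA holds GC boxes at -204, -131 and -73 and CT elements at -200 and -70, of which 2 pairs overlap, and a second TGFA entry, at chr2:70553447-70553696, holds none of the 5 motifs. AREG and EREG, neighbours on chromosome 4, each hold a TATA box, at -29 and -32. AREG also holds a CRE at -65, a CT element at -45 and a GC box at -9, and EREG holds CT elements at -144 and -48. Among 35116 promoter entries of this length, 6.57% hold the AP-1 letters, 1.65% the CRE, 10.7% the TATA box, 42.6% the GC box and 24.7% the CT element. GC content was 73.6% for EGFR, 75.6% for TGFA, 65.2% for AREG and 58.0% for EREG, beside a median of 58.0% over all entries. HBEGF, which also rose against siNTC5, holds 5 GC boxes, a CT element at -79 and no TATA box, with a GC content of 76.4%. ERBB2 and ERRFI1, which fell, hold no TATA box either. ERBB2 holds an AP-1 match at -222 and no GC box, and ERRFI1 holds a GC box at -70. BTC holds only a CT element, at -243. Any link of these motifs to the direction of change was not tested. Of the 9 genes, 8 had an entry, and ERBB3 had none.

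Among the receptors, EGFR binds the ligands of this set. Its gene spans chr7:55019017-55211628 (GRCh38.p14) and overlaps the antisense gene EGFR-AS1; the strand counted is not given in the sources used here, so reads of overlapping genes cannot be told apart. In siNTC5 libraries 1 to 4 EGFR was at 174, 167, 179 and 193 CPM. In siHNRNPK libraries 1 to 4 it was at 51.9, 41.9, 44.8 and 44.0 CPM. The groups did not overlap, and the lowest control, at 167 CPM, lay far above the highest depleted library, at 51.9 CPM. EGFR fell by 1.96 ± 0.06 (SE) on the log2 scale (adjusted p = 1.44e-14, quasi-likelihood test of edgeR). Within the TruSeq libraries EGFR was at 27.6% of control and within the Ligation libraries at 23.9%. In bulk RNA, fewer cells expressing a gene and less RNA per cell cannot be told apart.

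ERBB2 encodes the receptor that has no known ligand of its own and pairs with the others. It was at 106, 109, 107 and 108 CPM in siNTC5 libraries 1 to 4. In siHNRNPK it was at 84.4, 87.9, 69.0 and 90.5 CPM, all below the controls, with replicate 3 the lowest. The log2 fold change was -0.37 ± 0.06 (adjusted p = 4.28e-05, edgeR), or 77.4% of control.

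ERBB3 encodes the receptor with an impaired kinase that binds neuregulins. Its RNA was at 64.4, 62.8, 70.2 and 68.5 CPM in siNTC5 and at 53.9, 49.2, 46.1 and 50.5 CPM in siHNRNPK. These groups did not overlap either, and the log2 fold change was -0.41 ± 0.06 (adjusted p = 8.87e-06, edgeR), or 75.1% of control. All 3 receptors were lower in every depleted library than in any siNTC5 library.

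**Figure D1:**
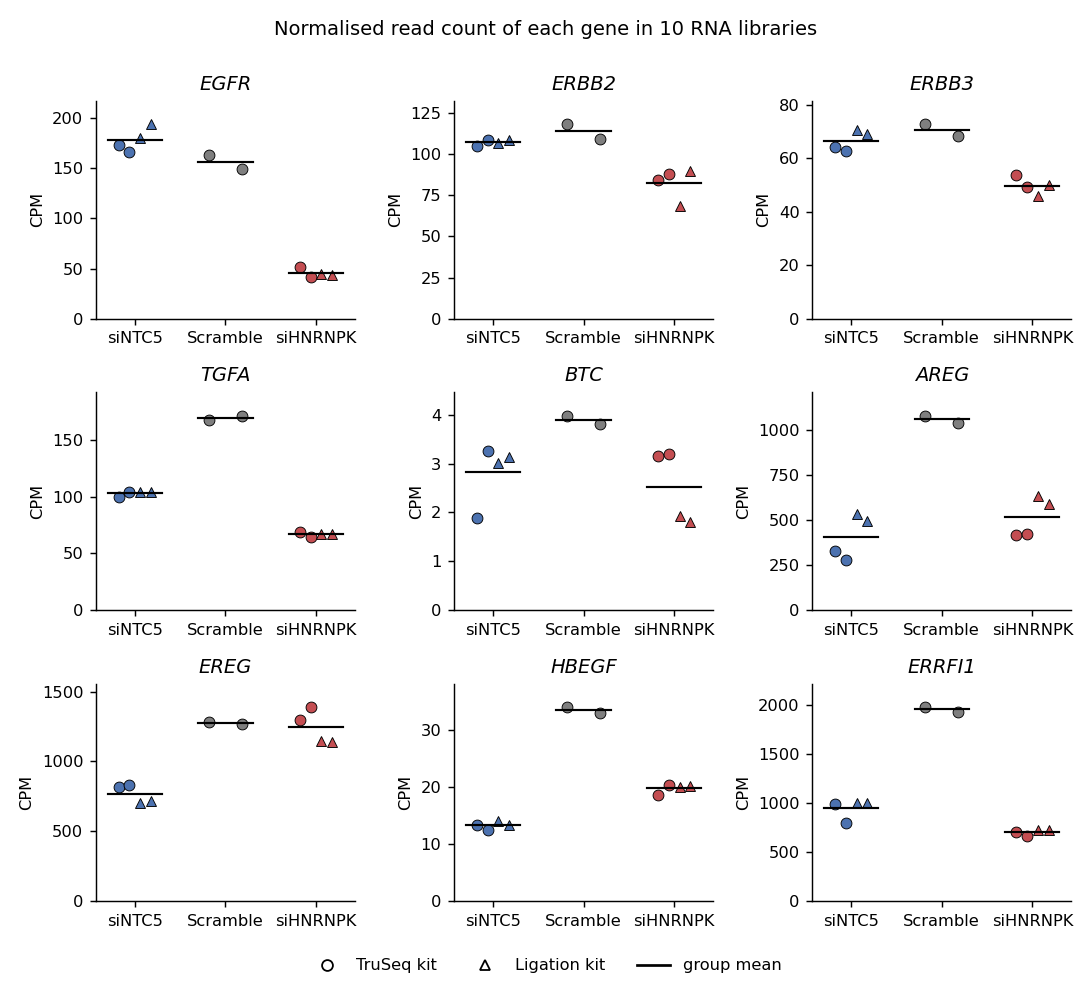
Normalised read count (CPM, TMM over 10 libraries) of each of the 9 genes in the siNTC5, Scramble and siHNRNPK libraries; points are libraries, circles TruSeq, triangles Ligation, bars group means, and every axis starts at 0. The siHNRNPK points of EGFR lie between 41.9 and 51.8 CPM. The Scramble points of AREG, HBEGF, TGFA, ERRFI1, BTC and, by a small margin, ERBB2 lie above both other groups.

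Among the ligands, TGFA encodes transforming growth factor alpha, a ligand of EGFR. It was at 99.9, 104, 103 and 104 CPM in siNTC5 libraries 1 to 4 and at 69.1, 64.8, 67.3 and 68.0 CPM in siHNRNPK. The spread within each group was small against the gap between them. TGFA fell by 0.61 ± 0.05 on the log2 scale (adjusted p = 1.58e-09, edgeR), to 65.6% of control.

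EREG encodes epiregulin, a ligand of EGFR and ERBB4. Its RNA was at 822, 829, 699 and 715 CPM in siNTC5 and at 1296, 1389, 1154 and 1150 CPM in siHNRNPK. Every depleted library lay above every control, and within each group the TruSeq libraries lay above the Ligation libraries. The log2 fold change was 0.70 ± 0.04 (adjusted p = 1.3e-11, edgeR). EREG stood at 163% of control in the TruSeq libraries and in the Ligation libraries alike.

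AREG encodes amphiregulin, a ligand of EGFR whose gene lies next to EREG. AREG was at 330, 276, 528 and 493 CPM in siNTC5 libraries 1 to 4. In siHNRNPK libraries 1 to 4 it was at 415, 419, 639 and 590.5 CPM. The pooled groups overlapped, since the Ligation controls lay above the TruSeq depleted libraries, but within each kit both depleted libraries lay above both controls. With kit in the model AREG rose by 0.36 ± 0.06 on the log2 scale (adjusted p = 1.03e-05, edgeR). The within-kit levels were 138% of control for TruSeq and 120.4% for Ligation, and without the kit term the change was 0.34 with an adjusted p of 0.171. The name AREGB, used for a near-identical copy of AREG, is not among the gene names of any of the tables. Nor is it among the RefSeq genes (GRCh38.p14) from 250 kb before EREG to 250 kb after BTC. Whether the annotation behind the counts held such a copy, and how reads were then shared, is not given in the sources used here.

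HBEGF encodes heparin-binding EGF-like growth factor, which binds EGFR and ERBB4. It was at 13.4, 12.5, 13.9 and 13.4 CPM in siNTC5 and at 18.7, 20.3, 20.1 and 20.3 CPM in siHNRNPK. The groups did not overlap, and the log2 fold change was 0.58 ± 0.08 (adjusted p = 4.36e-06, edgeR).

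BTC encodes betacellulin, a further ligand of EGFR and ERBB4. It had only 22 to 78 counts per library. BTC was at 1.90, 3.26, 3.00 and 3.12 CPM in siNTC5 and at 3.16, 3.19, 1.94 and 1.81 CPM in siHNRNPK, so the groups overlapped. Its log2 fold change of -0.16 ± 0.23 did not pass the test (adjusted p = 0.548, edgeR).

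ERRFI1, also known as MIG6, encodes a protein that binds the EGFR kinase and inhibits it, and it is itself induced by the route. ERRFI1 was at 995, 801, 996 and 997 CPM in siNTC5 and at 712, 661, 732 and 732 CPM in siHNRNPK. All depleted libraries lay below all controls, including the low siNTC5 replicate 2. The log2 fold change was -0.42 ± 0.05 (adjusted p = 1.37e-06, edgeR), or 74.9% of control.

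Against siNTC5, 8 of the 9 genes passed an adjusted p of 0.05, 3 higher and 5 lower. HNRNPK siRNA changed much of the transcriptome: 71.5% of all 13933 tested genes passed the same test, 35.5% higher and 36.1% lower, so that count sets the members little apart. Groups did not overlap for 7 of the 9, beside 56.5% of all tested genes: 2 of the 9 lay higher (28.5% of all) and 5 lower (28% of all). A log2 change of at least 1 in size with a passing test was found for 1 of the 9, EGFR, beside 15.8% of all tested genes. The median log2 change was -0.37 over the 9 and -0.0042 over all tested genes.

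The kit itself moved 2 of the 9, beside 28.5% of all tested genes. Ligation libraries were higher than TruSeq for AREG by 0.66 ± 0.06 on the log2 scale (adjusted p = 1.31e-06) and lower for EREG, at -0.22 ± 0.04 (adjusted p = 0.000328). A difference of the HNRNPK effect between kits was found for 0 of the 9 in edgeR, beside 0.129% of all tested genes. BTC alone had an unadjusted p under 0.05, and the Wald test of DESeq2 also gave 0 of 9. Without siNTC5 replicate 1 the count was 2, AREG and ERRFI1, while the count over all genes went from 18 of 13933 to 364 of 14092. Without siNTC5 replicate 2 it was 1, BTC, with 598 of 14097 over all genes. In simulated data the edgeR test of this difference called 69 of 99 genes given a difference of 1 on the log2 scale.

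The Scramble control gave other levels for most of the ligands. These values come from a normalisation over all 10 libraries, on the 25527 gene names the tables share. AREG was at 1080 and 1038 CPM in Scramble, where the siNTC5 libraries ranged from 276 to 531 CPM. HBEGF was at 34.0 and 33.0 CPM, beside 12.5 to 14.0 CPM in siNTC5. TGFA was at 168 and 172 CPM, beside 99.6 to 104 CPM. Each of these 3 ligands was higher in both Scramble libraries than in any siNTC5 library. The share of all tested genes separated in this way between Scramble and siNTC5 was not computed.

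For EREG, Scramble stood at 1282 and 1271 CPM and siNTC5 at 703 to 829.5 CPM. ERRFI1 was at 1982 and 1929 CPM in Scramble and at 801 to 1004 CPM in siNTC5. The receptors differed little: EGFR was at 164 and 149 CPM beside 167 to 194 CPM, ERBB2 at 118 and 109.6 CPM beside 105 to 109 CPM, and ERBB3 at 72.8 and 68.3 CPM beside 62.8 to 70.5 CPM. BTC was at 3.98 and 3.82 CPM, above all 4 siNTC5 libraries.

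In the edgeR test with kit in the model, the log2 difference of Scramble from siNTC5 was 1.76 ± 0.08 for AREG (adjusted p = 6.28e-10) and 1.33 ± 0.09 for HBEGF (adjusted p = 5.97e-08). It was 1.08 ± 0.08 for ERRFI1, 0.69 ± 0.06 for TGFA and 0.58 ± 0.05 for EREG, all past the threshold. EGFR was lower by a little, at -0.17 ± 0.06 (adjusted p = 0.0336), a call that 8 alternatives lost. ERBB2 (0.04 ± 0.06), ERBB3 (0.10 ± 0.06) and BTC (0.51 ± 0.23) did not pass. In all 6 of the 9 passed, 5 higher and 1 lower, beside 68.6% of all tested genes, 35.1% higher and 33.5% lower. HNRNPK itself was lower in Scramble than in siNTC5 by 0.24 on the log2 scale (adjusted p = 0.0016).

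Against Scramble, 7 of the 9 were lower in siHNRNPK and 0 were higher, beside 81.6% of all tested genes called in either direction, 38.8% higher and 42.8% lower. EGFR was at -1.73 ± 0.07 on the log2 scale, ERRFI1 at -1.51 ± 0.05, AREG at -1.34 ± 0.05 and TGFA at -1.34 ± 0.06. HBEGF was at -0.78 ± 0.09, ERBB3 at -0.45 ± 0.07 and ERBB2 at -0.40 ± 0.07. EREG (0.08 ± 0.05, adjusted p = 0.116) and BTC (-0.29 ± 0.22, adjusted p = 0.222) did not pass. Upper-quartile scaling moved the median of all genes in this comparison from -0.04 to 0.14 and turned the balance of all calls from 5514 higher and 6082 lower to 6551 higher and 4994 lower. EREG then passed at 0.26, while the other 8 genes kept their direction. In Scramble against siNTC5 the same scaling turned 5009 higher and 4774 lower calls into 4345 and 5465. Over 13 alternatives EREG ranged from -0.03 to 0.26.

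The comparisons with siNTC5 and with Scramble share the 4 siHNRNPK libraries, so their values are given side by side and not as separate evidence. EGFR, ERBB2, ERBB3, TGFA and ERRFI1 passed as lower against both controls, as did 26.9% of all genes tested in both. AREG and HBEGF passed in opposite directions against the controls, as did 8.37% of all genes. For EREG the depleted libraries, at 1142 to 1390 CPM on this scale, lay above siNTC5 and around Scramble.

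**Figure D2:**
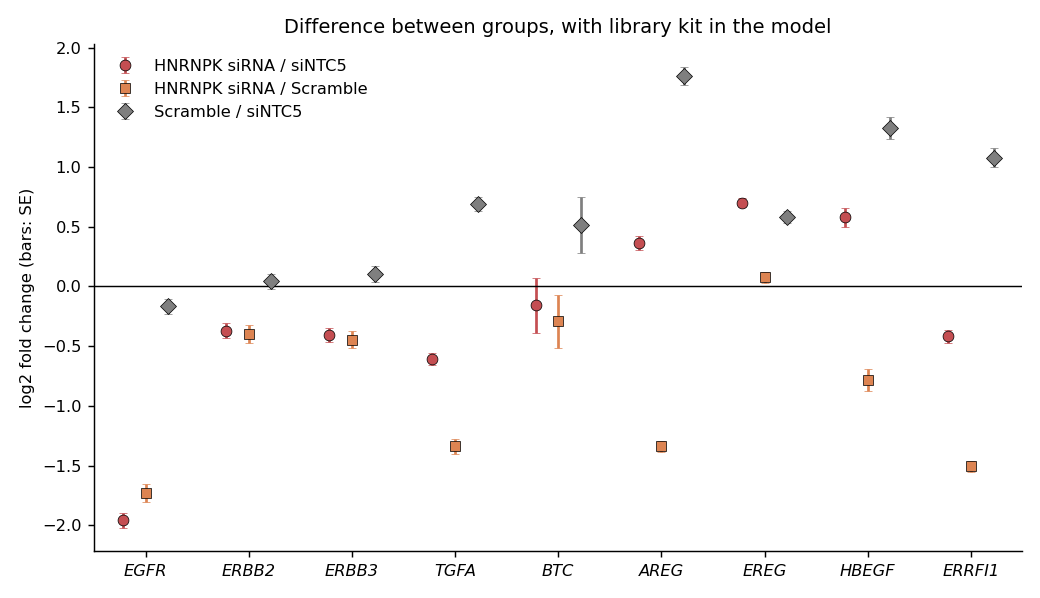
Log2 fold change of each of the 9 genes in 3 comparisons of groups, from models with library kit; bars are standard errors. EGFR, ERBB2 and ERBB3 lie below 0 against both controls, whereas AREG and HBEGF lie above 0 against siNTC5 and below 0 against Scramble.

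Genes whose pattern over the 10 libraries was nearest to that of EGFR were sought among 13266 genes by the root mean square difference of log2 CPM centred on each gene's mean. HADH, an enzyme of mitochondrial fatty acid oxidation, was nearest at 0.12, followed by SLC25A10, a mitochondrial dicarboxylate carrier, and SEMA3D, a secreted semaphorin, both at 0.14. The SD of EGFR over the libraries was 0.99 on the same scale. Against siNTC5 their log2 fold changes were -1.85, -1.97 and -1.98. The genes were chosen on these same libraries, so the nearness of these values to that of EGFR follows from the choice.

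Genes of the rest of the route were read from 6 lists. Each stands beside the same background: 71.5% of all tested genes called against siNTC5, 35.5% higher and 36.1% lower. For the counts against Scramble the background is 81.6% called, 38.8% higher and 42.8% lower. Of the other ligands and ERBB4, 5 of 7 were tested and 2 passed. NRG1, a neuregulin that binds ERBB3, rose by 0.61 ± 0.13 on the log2 scale, though its groups overlapped, and EPGN, encoding epigen, fell by 0.79 ± 0.25. EPGN was at 1.42 to 2.20 CPM in siNTC5 and at 0.923 to 1.26 CPM in siHNRNPK. EGF, NRG2 and NRG4 did not pass. ERBB4 was too low to test, and NRG3 had 0 counts in all 10 libraries.

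All 8 tested genes of ligand shedding passed, 5 higher and 3 lower, with a median log2 change of 0.38. Against Scramble the balance was the other way, with 7 of 8 passing, 2 higher and 5 lower, and a median of -0.35. ADAM17, the main sheddase of AREG, EREG, HBEGF and TGFA, rose by 0.58 ± 0.05 against siNTC5 (adjusted p = 5.35e-09, edgeR) and was lower than in Scramble, at -0.37 ± 0.06 (adjusted p = 1.29e-06). Its partners RHBDF2 (0.79 ± 0.06) and FRMD8 (0.50 ± 0.06) rose too against siNTC5. Against Scramble RHBDF2 was at 0.23 ± 0.07 (adjusted p = 0.00248) and FRMD8, at 0.04 ± 0.08, did not pass (adjusted p = 0.675). ADAM10, the main sheddase of BTC, fell by 0.24 ± 0.04, and ADAM15 by 0.71 ± 0.04. ADAM19 fell the most: its 4 siNTC5 libraries were at 486, 455, 581 and 570.3 CPM and its siHNRNPK libraries at 178, 160.2, 164 and 181 CPM, a log2 change of -1.61 ± 0.06 (adjusted p = 3.51e-14, edgeR). ADAM12 and RHBDL2 were too low to test.

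Of 11 adaptors and effectors 7 passed, 4 higher and 3 lower, with a median of -0.05, and 8 passed against Scramble, 3 higher and 5 lower, with a median of -0.10. SOS1, the exchange factor that loads RAS, rose by 0.65 ± 0.05, while the docking protein gene GAB1 (-0.90 ± 0.11) and PLCG1 (-0.88 ± 0.05), encoding phospholipase C gamma, fell. Against Scramble SOS1 was at 0.53 ± 0.06 and GAB1 at -0.89 ± 0.15, while PLCG1, at 0.06 ± 0.07, did not pass (adjusted p = 0.433, edgeR). CRK also passed as lower against siNTC5, at 14 to 72 counts per library beside 8055 and 7394 counts in Scramble. Of 20 inhibitors and genes of receptor turnover 15 passed, 11 higher and 4 lower, with a median of 0.19. Against Scramble 15 passed as well, but 5 higher and 10 lower, with a median of -0.10. CBLB (0.79 ± 0.08) and NEDD4L (0.72 ± 0.05), which encode ubiquitin ligases, were the highest 2 of these against siNTC5. Against Scramble NEDD4L was at 0.41 ± 0.06, and CBLB, at 0.11 ± 0.10, did not pass (adjusted p = 0.271, edgeR).

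The RAS-ERK and PI3K relay leaned lower: 12 of 17 tested genes passed, 2 higher and 10 lower, with a median of -0.23. Against Scramble all 19 genes could be tested and passed, 4 higher and 15 lower, with a median of -0.50; the 2 added genes are near 0 counts in the siNTC5 and siHNRNPK table alone. MAP2K2, encoding the kinase MEK2, was at 90.3, 82.8, 120.1 and 113 CPM in siNTC5 and at 36.2, 30.8, 45.1 and 43.0 CPM in siHNRNPK. It fell by 1.38 ± 0.06 on the log2 scale (adjusted p = 5.63e-13, edgeR), and MAPK3, encoding ERK1, fell by 1.11 ± 0.07 (adjusted p = 3.62e-11). MAP2K1, encoding MEK1, also fell, by 0.23 ± 0.05. NRAS rose by 0.49 ± 0.04. HRAS had 0 counts in these 8 libraries and was not tested.

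Genes that ERK signalling is known to induce split: 11 of 15 tested passed, 5 higher and 6 lower, with a median of -0.07. DUSP4 (-1.76 ± 0.05) and DUSP6 (-1.22 ± 0.06), encoding phosphatases of ERK, and EGR1 (-1.68 ± 0.05), an immediate early factor, fell the most. PHLDA1, SPRY4 and CCND1 fell by 0.73 to 0.75 on the log2 scale. DUSP5 rose by 0.77 ± 0.05 against siNTC5 but was lower than in Scramble, at -0.42 ± 0.05 (adjusted p = 2.15e-09, edgeR). IER3 was not tested: it has 0 to 4 counts in the table of 8 libraries and 37017 and 32257 counts in Scramble, a gap between the tables like that of HRAS and CRK. The control mattered here too, since 12 of 16 passed as higher in Scramble than in siNTC5 (median 0.77, with 1 lower), and 11 of 16 passed as lower in siHNRNPK than in Scramble (median -1.04, with 1 higher). Both of these counts include IER3. Over all tested genes 35.1% passed as higher and 33.5% as lower in Scramble against siNTC5. In siHNRNPK against Scramble 38.8% of all tested genes passed as higher and 42.8% as lower.

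**Figure D3:**
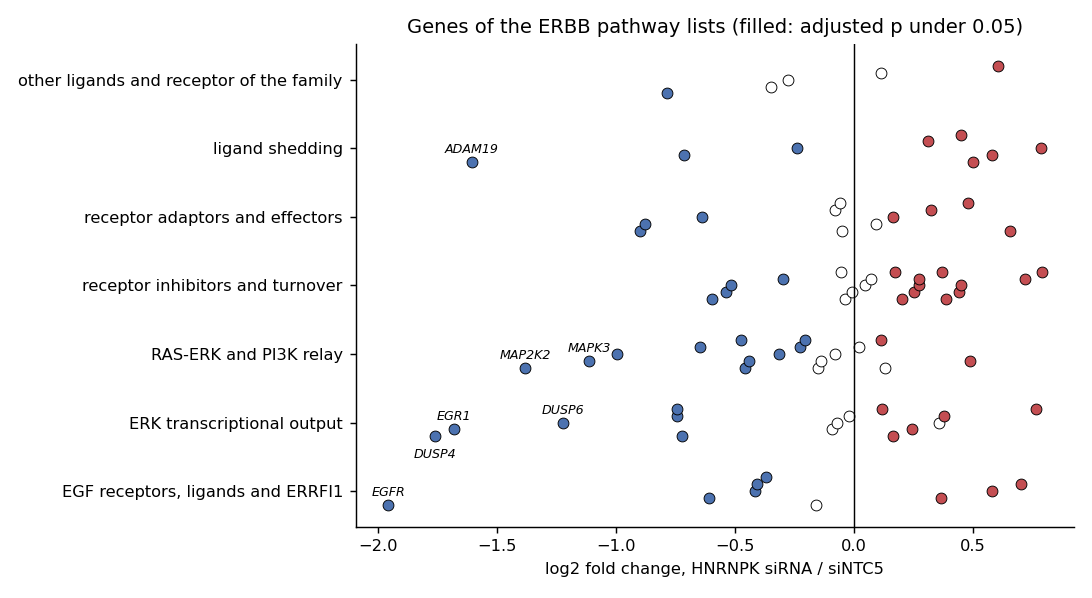
Log2 fold change, HNRNPK siRNA against siNTC5, of each tested gene in the 6 route lists and of the 9 receptor and ligand genes; filled points passed an adjusted p of 0.05, red higher and blue lower, open points did not pass, and vertical offsets carry no value. EGFR, at -1.96, is the lowest point of all rows, followed by DUSP4 at -1.76.

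The members' gene bodies were then set against the deposited domain lists, which give a score per domain and no replicates. A gene counted as inside a domain when at least 50% of its body was covered. Of the 9 genes 8 lay in no domain of any of the 7 lists. Over all tested genes with a position, control lists covered 2.96% for lamin B1, 2.94% for H3K9me3, 9.84% for H3K27me3 and 1.2% for H3K9me2. The lists of depleted cells covered 2.57%, 5.9% and 8.41% for the first 3 of these. EGFR, the gene with the largest fall, lay 28.4 kb from an H3K27me3 domain in both lists, 383.4 kb from the nearest H3K9me3 domain in depleted cells and 494.0 kb in control cells.

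ERBB2 was the exception. Its body (chr17:39688094-39728658, overlapping MIEN1 and the miRNA gene MIR4728) lay wholly in a lamin B1 domain of 175 kb that is listed in depleted cells (chr17:39575001-39750000), with 0% of that domain in the control list. The nearest control lamin B1 domain was 1443.1 kb away. The authors' score of the domain was 0.505, where the list's lowest was 0.477 and its median 0.755. The domain is therefore absent when only domains at or above the median score are kept. It covers 13 annotated genes, of which 7 were tested: 2 rose, 4 fell and 1 did not pass. Over all tested genes 35.5% passed as higher and 36.1% as lower.

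Next to ERBB2 within that domain, MIEN1, whose body overlaps the end of ERBB2, fell by 1.25 ± 0.07 on the log2 scale and PGAP3, of glycolipid anchor remodelling, by 0.79 ± 0.14. GRB7, an adaptor that binds ERBB2, fell by 0.41 ± 0.08. STARD3, a cholesterol transporter, rose by 0.18 ± 0.05 and TCAP, a muscle sarcomere gene at a very low level here, by 1.24 ± 0.29. PPP1R1B did not pass (0.64 ± 0.37). Outside the domain, IKZF3, encoding a lymphoid transcription factor, rose by 4.51 ± 0.23 (adjusted p = 3.66e-12, edgeR). Its body is 100% inside an H3K27me3 domain in both lists, and 65.0% inside an H3K9me3 domain in the list of depleted cells only. That H3K9me3 domain (chr17:39795001-39870000) had a score of 0.457, where the list's lowest was 0.452 and its median 0.709.

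**Figure D4:**
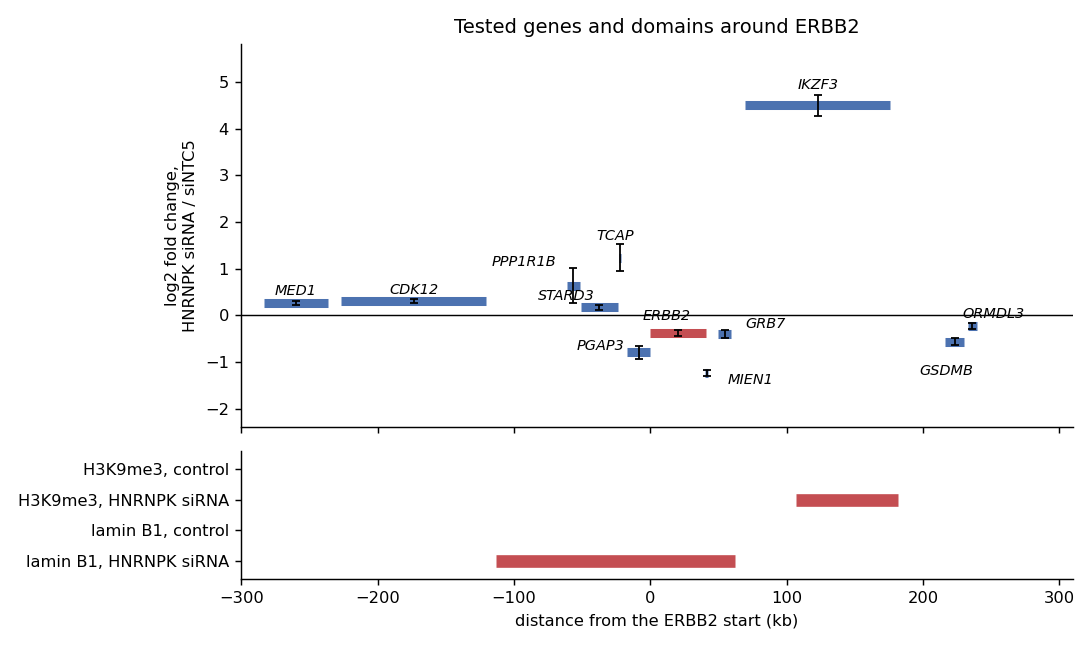
Tested genes (top, log2 fold change of HNRNPK siRNA against siNTC5, bars drawn over the gene body, error bars SE, ERBB2 in red) and deposited lamin B1 and H3K9me3 domains (bottom, blue control, red depleted) by distance in kb from the ERBB2 start. No domain of either control list falls in the window, and the lamin B1 domain of depleted cells covers genes that rose and genes that fell.

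Of the 5 ligand genes 3 share a stretch of chromosome 4: EREG (chr4:74365145-74388749), AREG (chr4:74445136-74455005) and BTC (chr4:74744759-74794523). In depleted cells H3K9me3 domains were listed on both sides of EREG and AREG, and the control list held neither. The H3K9me3 list of depleted cells holds 1996 domains and the control list 895. Domains listed in depleted cells only also lay within 250 kb of ERBB2 and ERRFI1. The share of all genes with such a domain nearby was not computed. The first (chr4:74215001-74330000, score 0.637) ends 35.1 kb before EREG, and the second (chr4:74530001-74620000, score 0.845) starts 75.0 kb after AREG and ends 124.8 kb before BTC. A further one (chr4:74035001-74170000, score 0.538) lies 195.1 kb before EREG and is not in the control list either. The median score of the list was 0.709. Control cells had no H3K9me3 domain within 1495.1 kb of EREG.

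Genes of this stretch moved in both directions. MTHFD2L, a mitochondrial folate enzyme, is 76.1% inside these domains and rose by 0.40 ± 0.09 on the log2 scale. EPGN is 100% inside the first domain and fell by 0.79 ± 0.25. EREG and AREG, between the domains, rose by 0.70 and 0.36. PARM1, 138.6 kb beyond BTC, fell by 0.70 ± 0.06. Against Scramble the same genes read 1.55 for MTHFD2L, -1.10 for EPGN, 0.08 for EREG, -1.34 for AREG and -0.70 for PARM1.

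**Figure D5:**
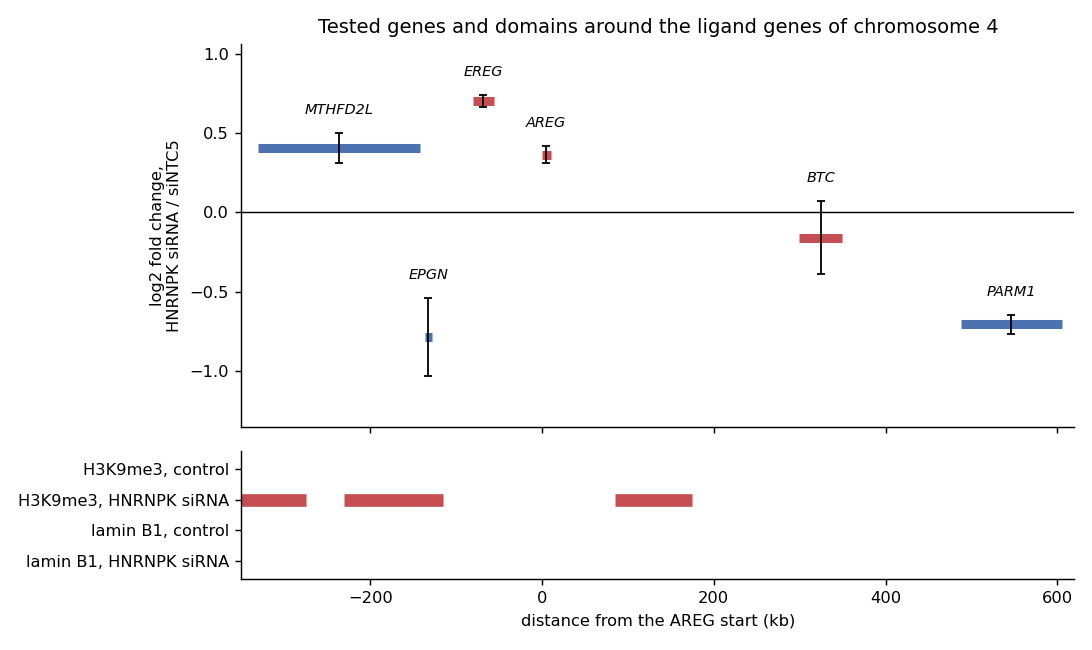
Tested genes (top, log2 fold change of HNRNPK siRNA against siNTC5, bars drawn over the gene body, error bars SE, members in red) and deposited lamin B1 and H3K9me3 domains (bottom, red depleted) by distance in kb from the AREG start. EREG and AREG lie between H3K9me3 domains that are listed in depleted cells and not in control cells, and no lamin B1 domain falls in the window.

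The other genes sat among neighbours that also moved in both directions, as did all tested genes, of which 71.5% passed, 35.5% higher and 36.1% lower. Within 250 kb of EGFR 2 genes were tested: LANCL2 rose by 0.22 ± 0.07 and VOPP1 fell by 0.26 ± 0.07. Around ERBB3 (chr12:56080108-56103505) 18 of 28 tested neighbours passed, 9 higher and 9 lower. Around HBEGF (chr5:140332843-140346603) 9 of 12 passed, 2 higher and 7 lower, although HBEGF rose. Around TGFA (chr2:70447284-70553826) 3 of 4 passed, 1 higher and 2 lower. Around ERRFI1 (chr1:8011727-8026309) all 6 passed, 4 higher and 2 lower; 2 H3K9me3 domains of the depleted list lie 103.7 and 136.7 kb from ERRFI1, and TNFRSF9, between ERRFI1 and the farther of them, rose by 3.69 ± 0.29.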

How the data were processed

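RNA was measured in 10 libraries of HCT116 cells and domains in 7 lists from chromatin immunoprecipitation. The authors deposited raw counts for each gene symbol, in 1 table for the 8 siNTC5 and siHNRNPK libraries and 1 for each Scramble library. STAR 2.7.1a, featureCounts and Subread 2.0.6 are named with build hg38 for the 8 libraries, per the submitters' processing notes. For Scramble the same notes name STAR 2.7.1a, featureCounts and DESeq2 with builds hg19 and hg38, without saying which build the counts used. The annotation and the strand counted are not given in the sources used here. The domain lists hold the authors' deposited score for each domain. Bowtie2 2.5.1, fastp 0.23.2 and deepTools 3.1.3 are named with hg38 for chromatin, per the submitters' processing notes. The domain caller, the meaning of the score and the pooling of replicates are not given in the sources used here.

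The groups follow the labels, and Scramble was held apart from siNTC5. After filterByExpr and TMM scaling, counts entered the quasi-likelihood test of edgeR 4.0.16 (limma 3.58.1, R 4.3.3), with library kit and group as terms. The Benjamini-Hochberg adjustment ran over all tested genes, with a threshold of 0.05. Comparisons with Scramble used the 25527 gene names shared by the tables. CPM are TMM-normalised over the 8 libraries, or over all 10 where Scramble is given, with 0 columns of other samples left unused. Nothing in the labels says that replicates came from separate cultures, so p values measure only the spread between these libraries, which may be technical. Pairs of libraries of 1 group and kit differed beyond counting noise, with chi-square per degree of freedom from 2.23 to 8.42 over genes.

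Libraries with the same replicate number deviated together, the correlation over genes, which are not independent, being 0.1004, 0.4246, 0.3365 and 0.2653 from number 1 to number 4. Kit follows the replicate number, and after removal of kit and group these were -0.19, -0.16, -0.28 and -0.25. The fit that removes them makes such correlations negative even without pairing, so these values cannot decide on pairing beyond kit. All 4 correlations exceeded 0.1 before kit was removed, the limit used for pairing, but no pairing beyond kit is shown. The fit with the replicate number as a block in place of kit is an alternative.

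Positions came from RefSeq (GRCh38.p14) and matched 13481 of the tested genes (96.8%). A gene lay in a domain when at least 50% of its body was covered, and neighbours were genes within 250 kb. The 9 genes, the 6 route lists and the marker lists were chosen with earlier results of these data known. Named from the lists were genes with a passing test and a log2 change of at least 1 in size, and genes not tested. Neighbours were named for the chromosome 4 ligands, and for EGFR the 3 genes nearest in pattern. Other list genes, and the neighbours of EGFR, ERBB2 and ERRFI1, were named after their values were seen. Some genes of the route lists are not reported here by name.

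Alternatives were size factors of DESeq2, upper-quartile scaling, a fit without the kit term, the Wald test of DESeq2 1.42.0, a filter at a mean of 50 counts or none, a replicate block, each kit alone, Scramble added to the controls, a minimum log2 change of 1, each library left out, any overlap with a domain, domains at or above the median score, and domains of at least 100 kb. For HNRNPK siRNA against siNTC5 the fit was tested on simulated data, with 197 of 13933 genes changed, some up and some down. No kit effect was simulated. Of genes changed by 1 on the log2 scale 94 of 99 were called, and of those changed by 2, 97 of 98. There were 6 false calls. In the deposited data 71.5% of tested genes passed, and the rate of false calls in such a setting was not tested. Figures were made in Python 3.11.15 with matplotlib 3.10.9, pandas 2.3.3 and numpy 2.4.6.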

Additional observations from a re-analysis of the deposited data

Results flagged for a closer look

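In the siNTC5 and siHNRNPK groups of the 9 genes and HNRNPK, 20 groups of 4 libraries were examined for a library far from the other 3, and 3 were found; chance alone gives about 1 in 20. ERRFI1 in siNTC5 replicate 2, at 801 CPM, lay far below the other 3 controls, which were at 995 to 997 CPM. HBEGF in siHNRNPK replicate 1, at 18.7 CPM, lay below the other 3 depleted libraries, at 20.1 to 20.3 CPM. TGFA in siNTC5 replicate 1, at 99.9 CPM, lay below the other 3 controls, at 103 to 104 CPM. In each case the library stayed on its own side of the gap between siNTC5 and siHNRNPK.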

How the results depend on the processing

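Against siNTC5, the call and direction of EGFR, ERBB2, ERBB3, TGFA, EREG and ERRFI1 held under all 18 alternative fits, with EGFR between -2.08 and -1.85. A minimum log2 change of 1 left 1 of the 8 calls, EGFR. With Scramble added to the controls AREG turned to -0.28 (adjusted p = 0.612) and HBEGF went to 0.10 (adjusted p = 0.824); without the kit term AREG was at 0.34 (adjusted p = 0.171). BTC passed in the Ligation libraries alone, at -0.71, and ranged from -0.71 to 0.28. In the fit with a block on replicate number in place of kit, 8 genes passed, 3 higher and 5 lower, and no call changed. With single libraries left out, the count of genes whose effect differed between kits ranged from 0 to 2 of the 9, and over all tested genes from 6 to 598. The lamin B1 domain over ERBB2 dropped out (0 genes) with domains at or above the median score.

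In Scramble against siNTC5 the EGFR call was lost with size factors of DESeq2, its Wald test, no filter, TruSeq alone, and without siNTC5 replicate 1 (-0.14), 3 (-0.17), 4 (-0.16) or Scramble replicate 6 (-0.10). BTC passed there with no filter (0.55) and without siNTC5 replicate 2 (0.99). Against Scramble, EREG passed under upper-quartile scaling, with a mean of at least 50 counts (0.17) and without siHNRNPK replicate 1 (0.14), and BTC without the kit term (-0.60). Between kits, ERRFI1 passed with no filter and without siNTC5 replicate 1 (0.18). The causes were not tested. Few counts limit EGF, NRG2, NRG4, EPGN and BTC, and the domain lists have no replicate.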
